A study of Mus musculus with 16 samples.

Results

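The genes for platelet-derived growth factors, vascular endothelial growth factor A and the angiopoietin receptors were followed across the cell types of the aged mouse cortex. They are 9 of the 30389 gene symbols in the series, chosen by name: the ligands Pdgfa, Pdgfb and Vegfa and the receptors Pdgfra, Pdgfrb, Flt1 (VEGF receptor 1), Kdr (VEGF receptor 2), Tek (Tie2) and Tie1. The transcripts were counted by Drop-seq, which reads the 3′ end of messenger RNA from single cells held in droplets with barcoded beads, in dissociated neocortex. The tau transgenic line THY-Tau22 was set against its wild-type (WT) littermates. All mice were 17 months old, and the THY-Tau22 mice were heterozygous for a transgene that expresses human 4-repeat tau with the G272V and P301S mutations from the neuronal Thy1.2 promoter. The WT groups lack the transgene, every group shares the crossing to C57Bl6/J, and the animals were perfused with buffered saline before dissection. Each of the 16 tables holds 3000 barcodes and is labelled as 1 mouse, from male WT, male THY-Tau22, female WT and female THY-Tau22 mice.

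Platelet-derived growth factors act through 2 tyrosine kinase receptors. Pdgfb made by endothelial cells recruits and holds Pdgfrb-bearing pericytes on brain capillaries, and Pdgfa drives the division of Pdgfra-bearing oligodendrocyte precursors. Vegfa binds Kdr, which carries most of its signal to the endothelium, and Flt1, which binds it tightly and limits the amount that reaches Kdr. Tek is the receptor of the angiopoietins and steadies the vessel wall, and Tie1 is a related receptor that modulates it.

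Of the 3000 barcodes in WT male replicate 3, 2952 were also in the table labelled THY-Tau22 male replicate 4, against 3 to 12 in the other pairs of tables, so this library stood under both genotypes. It was left out of the levels and the main tests, but the cells of both its tables entered the clustering. In the remaining 14 libraries (3 male WT, 3 male THY-Tau22, 3 female WT and 5 female THY-Tau22), 24578 barcodes had 200 to 7000 detected genes, with 1121 to 2526 cells and 755945 to 2089367 unique molecular identifiers (UMIs, 1 per captured transcript) in each library. The median depth per cell was only 429 to 736.5 UMIs, so a gene seen in few cells may be transcribed in many. Cells were clustered without the 9 genes and named from marker genes that exclude them, and the names are therefore given as microglia-like and so on. The cells comprised 3338 endothelial-like, 883 mural-like, 148 fibroblast-like, 4561 astrocyte-like, 126 ependymal-like, 1117 oligodendrocyte precursor (OPC)-like, 4303 oligodendrocyte-like, 1214 neuron-like, 6957 microglia-like and 236 macrophage-like cells. No name was given to 1695 cells (6.90%), and THY-Tau22 male replicate 3 stood apart with 30.3% of its cells unnamed. One animal number stands in 2 titles, those of THY-Tau22 female replicate 1 and of the first male WT library (replicate 1), so the identity of 1 of these mice is in doubt. The transcript of Xist, made from the inactive X chromosome, stood at 729 CPM in this female library and at 0 CPM in this male one. Levels are given in CPM, counts scaled to the same total, of the UMIs summed over the cells of a class in a library, as mean ± SD over libraries with at least 10 cells of the class. The levels of 1 gene are compared between classes, and different genes are not compared with each other.

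The marker genes of each class were highest in that class for 10 of 10 endothelial, 16 of 18 mural, 9 of 10 astrocyte, 10 of 10 OPC, 10 of 10 oligodendrocyte and 8 of 10 microglia markers. The counts were 7 of 9 for fibroblast, 8 of 8 for ependymal, 10 of 10 for neuron and 8 of 8 for macrophage markers. The classes were named from these same markers, so the counts are no independent check of the names. The mural-like cells also carried endothelial markers, at a summed 8082 CPM against 12563 CPM in endothelial-like cells, and this bears on every vascular value below. The part that joined cells or free RNA took in these levels was not tested, but levels in cells without any UMI of the other class are given where they matter.

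**Figure D1:**
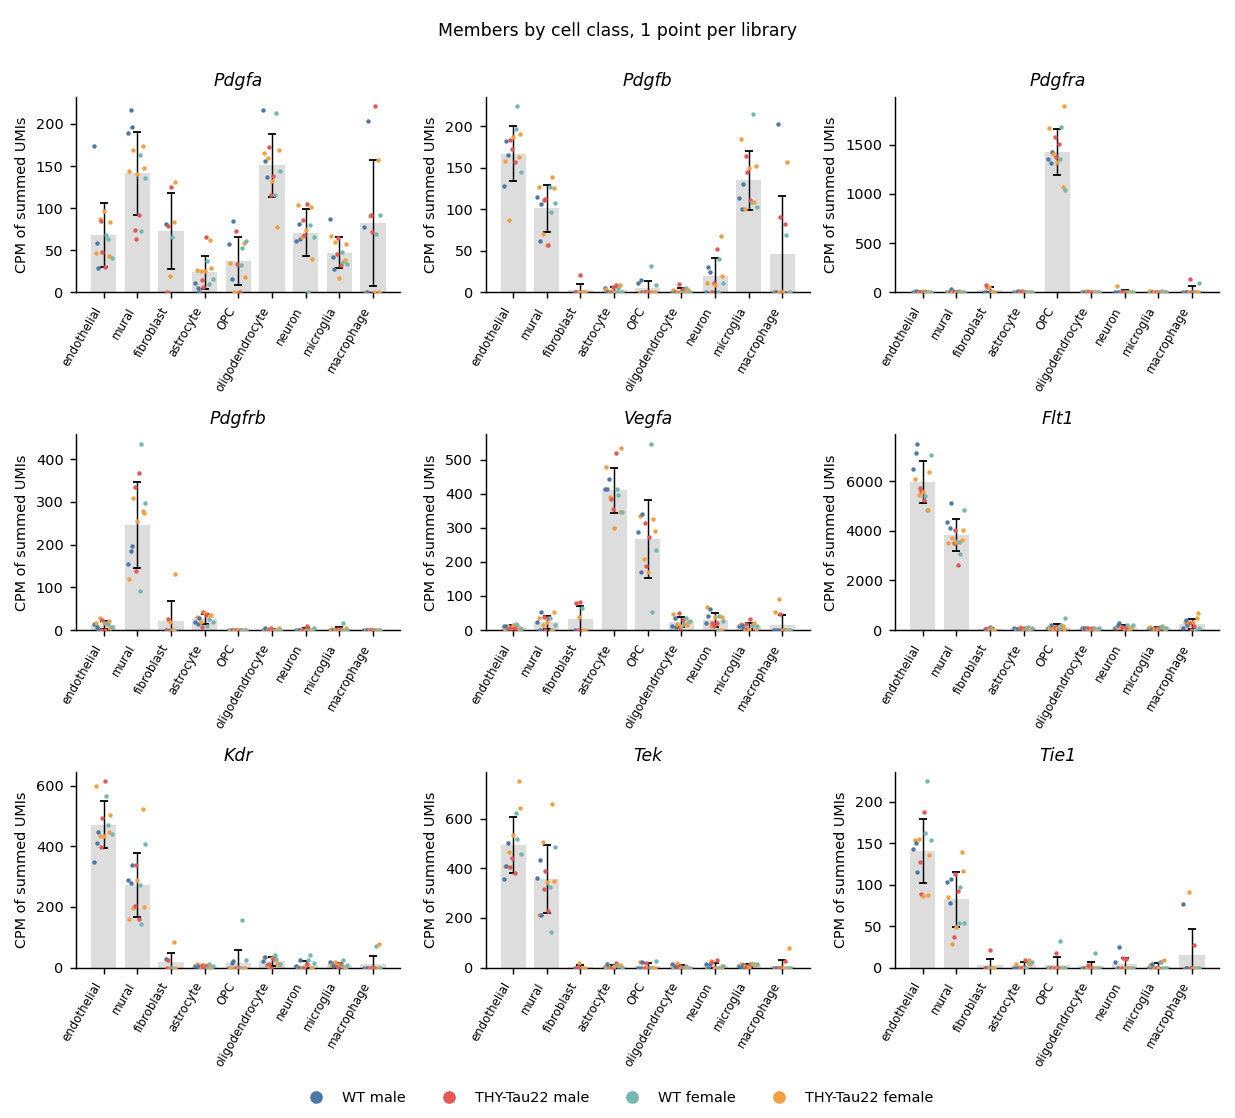
CPM of summed UMIs (y axis) of the 9 genes in 9 cell classes (x axis), with a point for each library coloured by group, grey bars for the mean and error bars for the SD over 14 libraries (13 for macrophage-like and 8 for fibroblast-like cells). Pdgfra points are high in OPC-like cells alone, Vegfa points in astrocyte-like and OPC-like cells, and the 4 vascular receptor genes in endothelial-like and mural-like cells.

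Pdgfb was read from 2 very different cell classes, endothelial-like cells and microglia-like cells. In endothelial-like cells it lay between 87.0 and 224 CPM with a median of 169 CPM over 14 libraries (mean 167 ± 33.2, SD). In microglia-like cells it lay between 101 and 215 CPM with a median of 122 CPM (mean 135 ± 35.3). The ranges overlapped, yet the endothelial-like level was the higher of the 2 in 12 of 14 libraries, by 32.4 ± 31.7 CPM (SD of the differences, exact two-sided sign-flip permutation test, adjusted p = 0.0195 over the 72 pairs of neighbouring classes tested for the 9 genes). Microglia-like cells were more numerous, and they held 47.9% of all Pdgfb UMIs against 32.9% in endothelial-like cells.

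The microglial Pdgfb level was as high in cells free of endothelial markers. Among the 6456 microglia-like cells without a UMI of any of the 10 endothelial markers, Pdgfb stood at 137 ± 40.4 CPM. A Pdgfb UMI was found in 7.24% of microglia-like cells (median depth 504 UMIs), in 10.6% of endothelial-like cells (532.5 UMIs) and in 0.175% of astrocyte-like cells (551 UMIs). After thinning every cell to 300 UMIs these shares were 3.91%, 4.94% and 0.0857%. Oligodendrocyte-like and OPC-like cells lay at 1.96 ± 3.25 and 4.85 ± 9.43 CPM, and neuron-like cells at 19.9 ± 21.2 CPM. Mural-like cells carried 101 ± 28.1 CPM, below microglia-like cells (adjusted p = 0.0375, lower in 10 of 14 libraries, the same exact test), and the 189 mural-like cells without an endothelial marker UMI held only 2 Pdgfb UMIs, or 18.7 CPM in the pooled libraries (95% exact Poisson interval 2.26 to 67.4, counting error only).

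Its receptor Pdgfrb, the gene that pericytes need to answer Pdgfb, was concentrated in mural-like cells. It reached 90.4 to 436 CPM there with a median of 265 CPM (mean 245 ± 101, n = 14), and this class of 3.59% of the cells held 63.1% of the Pdgfrb UMIs. Every library was above its own astrocyte-like level, the next highest (difference 220 ± 101 CPM, exact sign-flip test, adjusted p = 0.00220). Astrocyte-like cells carried 25.7 ± 11.2 CPM, with at least 1 UMI in each of the 14 libraries, and 26.0 ± 11.4 CPM in the 4328 of them without any mural marker UMI. Barcodes with fewer than 200 genes, which hold much free RNA, carried 27.15 CPM of Pdgfrb, near the astrocyte-like level. Oligodendrocyte-like, neuron-like and microglia-like cells lay lower, at 1.10, 1.14 and 2.10 CPM. The part of free RNA in the astrocyte-like level was not tested. Endothelial-like cells, at 12.4 ± 9.35 CPM and so below the level in those barcodes, were above microglia-like cells at 2.10 ± 4.28 CPM (adjusted p = 0.0205, higher in 10 of 14 libraries). No Pdgfrb UMI was found in OPC-like, macrophage-like or ependymal-like cells, where a count of 0 allows up to 3.70, 15.4 and 15.4 CPM (3 counts over all libraries).

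Within the mural-like cells Pdgfrb followed the pericyte-like sub-cluster. This sub-cluster of 120 cells, with the pericyte genes Kcnj8 and Abcc9 among its 10 leading genes and Grk3 first, held 934 CPM of Pdgfrb (95% exact Poisson interval 718 to 1195, pooled libraries). The 141 smooth muscle-like cells, with Acta2 at 2291 CPM, held 136 CPM (92.0 to 195). The largest sub-clusters, with 333 and 188 cells, stayed unnamed and carried Cldn5, the tight junction gene of endothelium, at 1318 and 1791 CPM, not far below the 2138 CPM of endothelial-like cells. In these the Pdgfrb level was 274 and 151 CPM. These sub-clusters were drawn from the same cells, so their levels are a description with no test.

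**Figure D2:**
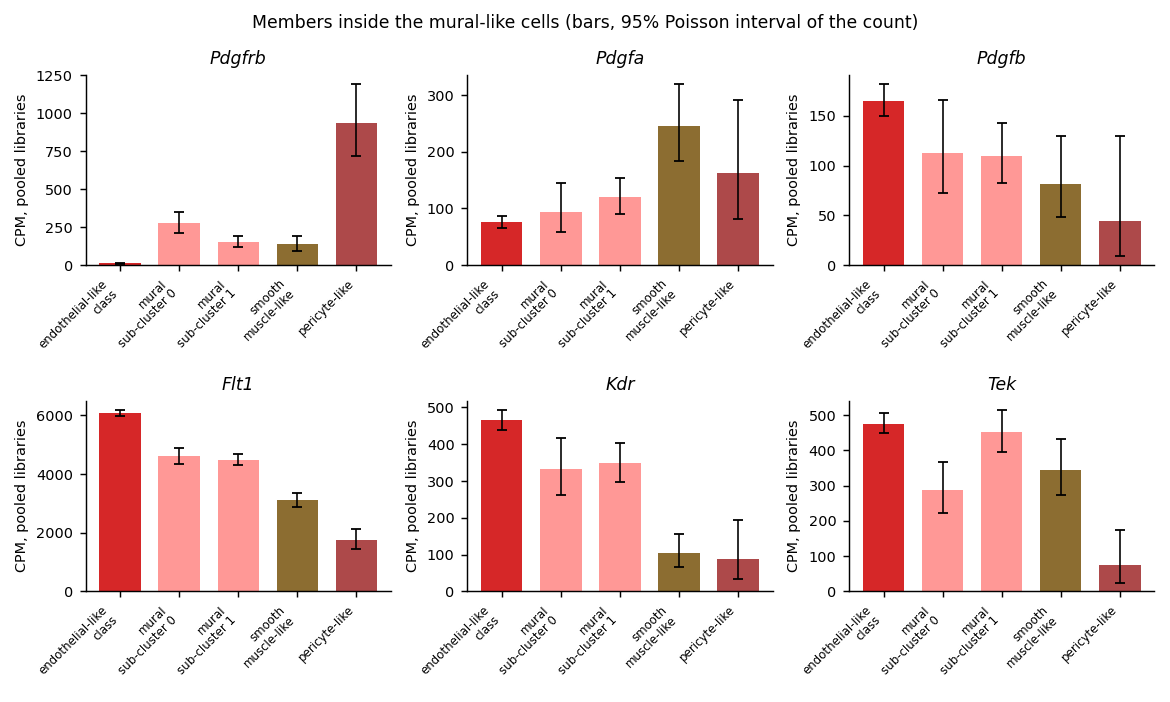
Pooled CPM (y axis) of 6 of the genes in the endothelial-like class and in 4 sub-clusters of the mural-like cells (x axis), with bars for the level and lines for the 95% exact Poisson interval, which covers counting error only; sub-clusters of 75 and 26 cells are not drawn. Pdgfrb is highest in pericyte-like cells (934 CPM) and Pdgfa in smooth muscle-like cells (245 CPM), while Flt1 falls from endothelial-like (6084 CPM) to pericyte-like cells (1765 CPM).

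Pdgfa, the ligand of Pdgfra, was spread over several classes. It was highest in oligodendrocyte-like cells, at 77.4 to 216 CPM with a median of 150 CPM (mean 151 ± 37.2), and in mural-like cells, at 62.9 to 216 CPM with a median of 146 CPM (mean 141 ± 48.9). These 2 did not differ beyond their spread (difference 9.67 ± 64.2 CPM, exact sign-flip test, adjusted p = 1, n = 14). Macrophage-like, fibroblast-like, neuron-like and endothelial-like cells followed at 82.6 ± 74.8, 73.0 ± 45.6, 71.1 ± 27.5 and 68.1 ± 37.5 CPM, with no neighbouring pair in this order past the threshold. Ependymal-like cells, which only 4 libraries held in sufficient number, stood at 147 ± 81.4 CPM and were left out of the order and its tests. Microglia-like, OPC-like and astrocyte-like cells were lowest, at 47.1 ± 18.5, 37.4 ± 28.1 and 24.0 ± 19.9 CPM. The level in endothelial-like, neuron-like and microglia-like cells stayed at 64.5, 71.8 and 48.3 CPM when cells with a UMI of an oligodendrocyte marker were left out. In barcodes with fewer than 200 genes Pdgfa stood at 42.7 CPM, within the range of the lowest of these class levels, and the part of free RNA in them was not tested. Among mural-like cells the smooth muscle-like sub-cluster carried 245 CPM of Pdgfa (184 to 320). The 189 mural-like cells without an endothelial marker UMI stood at 85.5 ± 103 CPM on 13 UMIs (11 libraries), against 141 ± 48.9 CPM in the whole class.

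Endothelial-like cells were not uniform in Pdgfa. The 735 cells with a UMI of an arterial marker (Bmx, Sema3g, Gkn3, Hey1, Efnb2 or Mgp) had 124 ± 66.4 CPM, and the 2603 others had 44.7 ± 27.4 CPM. The arterial-marked cells were higher in 14 of 14 libraries, by 79.3 CPM on average (exact sign-flip permutation test, adjusted p = 0.00171 over 21 splits tested). Only 2130 of the 3338 endothelial-like cells had no mural marker UMI, and the part of mural RNA in this split was not tested. Pdgfb did not follow this split, with 160 ± 43.7 CPM in arterial-marked cells and 173 ± 43.1 CPM in the others (higher in 5 of 14 libraries, adjusted p = 0.688).

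Pdgfra was all but a gene of OPC-like cells. It reached 1035 to 1888 CPM there with a median of 1388 CPM (mean 1426 ± 230, n = 14), and 91.2% of its UMIs lay in this class of 4.54% of the cells. In OPC-like cells 52.4% had a Pdgfra UMI (32.5% after thinning to 300 UMIs), against 0.240 to 0.577% of endothelial-like, mural-like, astrocyte-like, oligodendrocyte-like, microglia-like and neuron-like cells (median depths 588 UMIs in OPC-like and 504 to 763 UMIs in those classes). Fibroblast-like cells were next with 23.9 ± 33.9 CPM over 8 libraries, lower in each of them than OPC-like cells (exact sign-flip test, adjusted p = 0.0375), and the remaining classes lay between 0 and 17.6 CPM. OPC-like cells with a UMI of Gpr17, a marker of precursors committed to differentiate, had 1419 ± 407 CPM and the others 1493 ± 292 CPM (10 libraries, adjusted p = 0.771). Of the UMIs of the ligand Pdgfa, 2.26% lay in OPC-like cells. This class held 811301 of the 17735830 UMIs of all genes, so a gene spread evenly over the classes would also lie mainly outside it.

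**Figure D3:**
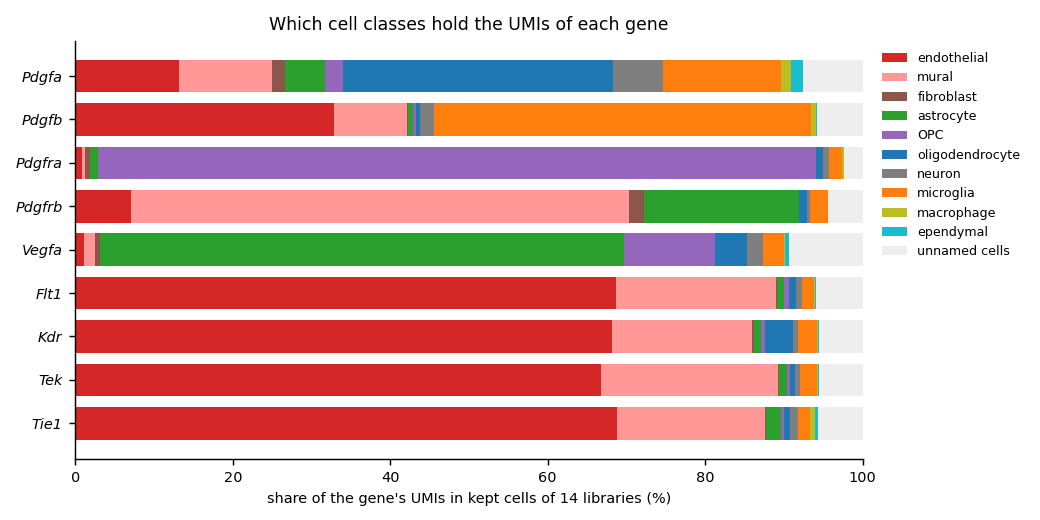
Share of the UMIs of each gene (x axis, percent) that lay in each cell class, in stacked bars for the 9 genes (y axis), over the kept cells of 14 libraries. OPC-like cells hold 91.2% of Pdgfra, astrocyte-like cells 66.6% of Vegfa, microglia-like cells 47.9% of Pdgfb and endothelial-like cells 66.8 to 68.8% of Flt1, Kdr, Tek and Tie1.

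Vegfa was read from astrocyte-like and OPC-like cells, and hardly from the endothelial-like cells that carry its receptors. It lay between 299 and 535 CPM in astrocyte-like cells with a median of 406 CPM (mean 410 ± 66.8, n = 14), and 66.6% of its UMIs were there. In OPC-like cells it lay between 52.5 and 547 CPM with a median of 281 CPM (mean 267 ± 114). The lowest and the highest OPC-like values both came from female WT libraries. Astrocyte-like cells were higher in 13 of 14 libraries, by 143 ± 115 CPM (exact sign-flip test, adjusted p = 0.0138). OPC-like cells were in turn above fibroblast-like cells, the next class at 33.5 ± 38.3 CPM (8 of 8 libraries, adjusted p = 0.0375). The OPC-like level was 346 ± 168 CPM in the 462 cells without an astrocyte marker UMI. Endothelial-like cells stood lowest at 8.46 ± 5.46 CPM, with a Vegfa UMI in 0.569% of cells (median depth 532.5 UMIs) against 20.3% of astrocyte-like cells (551 UMIs).

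The receptors Flt1, Kdr, Tek and Tie1 shared one pattern: endothelial-like cells first, mural-like cells second, and little elsewhere. Flt1 reached 4846 to 7500 CPM in endothelial-like cells with a median of 5672 CPM (mean 5945 ± 844), and 92.2% of these cells had at least 1 Flt1 UMI. Mural-like cells carried 3826 ± 655 CPM, lower in 14 of 14 libraries (exact sign-flip test, adjusted p = 0.00220). Kdr stood at 471 ± 76.5 CPM in endothelial-like cells, with libraries between 348 and 614 CPM, and at 271 ± 106 CPM in mural-like cells (higher in endothelial-like cells in 13 of 14 libraries, adjusted p = 0.00586). Tek stood at 493 ± 113 CPM and 355 ± 137 CPM in the same order, and the groups of libraries overlapped (10 of 14 libraries, adjusted p = 0.0205). Tie1 was split likewise, at 141 ± 38.9 and 82.3 ± 33.2 CPM (12 of 14 libraries, adjusted p = 0.0205).

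In every other class Kdr, Tek and Tie1 lay at or below 20.2 CPM, where neighbouring classes did not differ past the threshold. Flt1 was at 253 ± 199 CPM in macrophage-like cells and at 45.8 to 123 CPM in the remaining neural, glial and fibroblast-like classes. Barcodes with fewer than 200 genes held 924 CPM of Flt1, and a Flt1 UMI was found at a like low share of 3.72 to 5.19% in oligodendrocyte-like, astrocyte-like, microglia-like and OPC-like cells. The part of free RNA in these shares was not tested. In neuron-like cells Flt1 stood at 122 ± 75.6 CPM, and at 61.1 ± 37.0 CPM in the 1077 of 1214 cells without an endothelial marker UMI.

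The mural-like level of the 4 receptors rested on cells that also held endothelial markers. Among the 189 mural-like cells with no such UMI (11 libraries), Flt1 fell to 515 ± 524 CPM, Kdr to 58.1 ± 96.3 CPM and Tek to 40.1 ± 133 CPM, and Tie1 had no UMI, which allows up to 28.0 CPM (3 counts over these cells). The same cells carried 473 ± 310 CPM of Pdgfrb against 245 ± 101 CPM in the whole class. They were shallower, with a median of 473 UMIs per cell against 763 in the class. The pericyte-like sub-cluster still had 1765 CPM of Flt1 (1462 to 2112) beside 415 CPM of Cldn5.

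Inside the endothelial-like class Kdr differed by the arterial marker split and Flt1 by the venous one. At this depth cells without a marker UMI may still be arterial or venous. Kdr was lower in arterial-marked cells, at 378 ± 111 CPM against 509 ± 76.4 CPM in the others, and was higher there in only 1 of 14 libraries (exact sign-flip test, adjusted p = 0.00171). Flt1 did not follow the arterial split (5988 ± 1085 against 5945 ± 807 CPM, adjusted p = 0.849). It was lower in the 394 cells with a UMI of a venous marker (Slc38a5, Vwf, Nr2f2, Ackr1 or Lcn2), at 5270 ± 1123 CPM against 6127 ± 832 CPM, with 1 of 14 libraries the other way (adjusted p = 0.00171). Tek and Tie1 passed the threshold in neither split. Marked cells were deeper, with a median of 701 UMIs for arterial-marked and 828 for venous-marked cells against 506 and 511. Among cells with 500 or more UMIs the means were 139 and 45.2 CPM for Pdgfa, 395 and 491 CPM for Kdr, and 5249 and 6099 CPM for Flt1, in the same order.

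**Figure D4:**
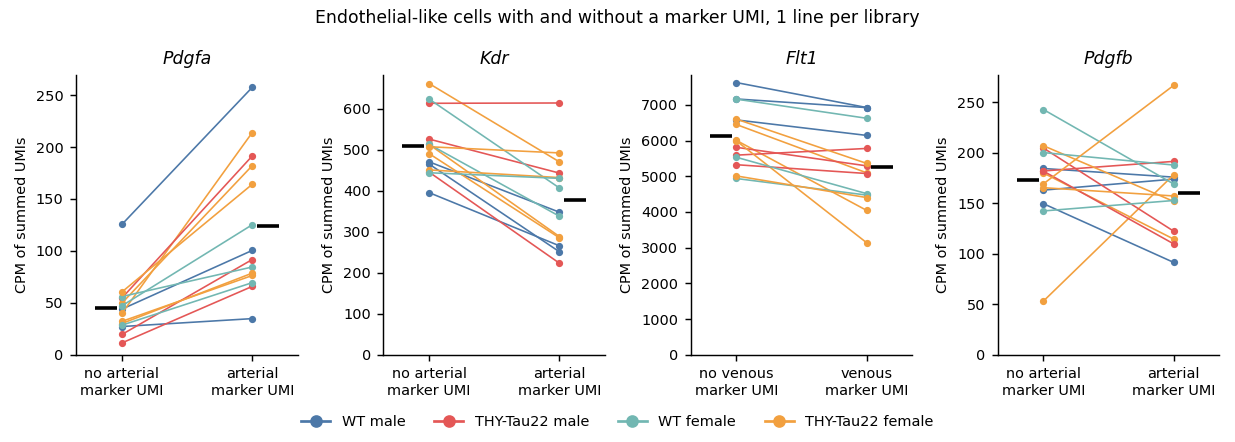
CPM of summed UMIs (y axis) in endothelial-like cells without and with a UMI of arterial or venous markers (x axis), 1 line per library coloured by group, with black marks for the means over 14 libraries. Pdgfa rises in all 14 libraries, Kdr and Flt1 rise in 1 library each, and Pdgfb rises in 5.

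The promoters of the 4 receptor genes are shown because these genes share one class pattern. Each line gives 250 bases before to 50 bases after the RefSeq start (GRCm38.p6), 5′ to 3′ on the gene's own strand, at chr5:147725962-147726261 (minus) for Flt1, chr5:75978406-75978705 (minus) for Kdr, chr4:94739039-94739338 (plus) for Tek and chr4:118489800-118490099 (minus) for Tie1. Capitals mark GGAA or its reverse complement TTCC, the core of the ETS factor motif, searched on both strands.
Flt1: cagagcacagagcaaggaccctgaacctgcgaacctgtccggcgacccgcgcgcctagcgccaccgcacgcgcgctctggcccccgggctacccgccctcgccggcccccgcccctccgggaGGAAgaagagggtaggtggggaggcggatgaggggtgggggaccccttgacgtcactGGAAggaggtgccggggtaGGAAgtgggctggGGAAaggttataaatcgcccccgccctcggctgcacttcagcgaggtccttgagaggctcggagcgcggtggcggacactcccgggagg
Kdr: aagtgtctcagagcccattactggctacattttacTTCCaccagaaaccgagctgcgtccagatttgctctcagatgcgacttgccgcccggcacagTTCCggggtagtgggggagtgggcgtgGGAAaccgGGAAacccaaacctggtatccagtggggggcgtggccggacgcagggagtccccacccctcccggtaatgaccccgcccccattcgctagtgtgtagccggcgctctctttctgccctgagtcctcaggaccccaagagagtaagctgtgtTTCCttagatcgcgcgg
Tek: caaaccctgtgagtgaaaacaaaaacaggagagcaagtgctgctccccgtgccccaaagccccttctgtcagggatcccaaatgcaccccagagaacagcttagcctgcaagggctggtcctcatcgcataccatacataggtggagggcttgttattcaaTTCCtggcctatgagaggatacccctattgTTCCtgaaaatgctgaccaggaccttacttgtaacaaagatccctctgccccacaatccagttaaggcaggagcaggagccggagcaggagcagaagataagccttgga
Tie1: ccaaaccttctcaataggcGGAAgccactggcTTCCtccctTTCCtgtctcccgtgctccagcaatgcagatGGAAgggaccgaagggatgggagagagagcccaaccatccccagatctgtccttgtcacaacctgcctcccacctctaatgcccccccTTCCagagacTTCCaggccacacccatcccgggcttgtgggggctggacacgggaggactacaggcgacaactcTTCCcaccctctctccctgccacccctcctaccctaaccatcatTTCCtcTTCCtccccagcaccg
Flt1 held 4 matches, Kdr 5, Tek 2 and Tie1 9. As many or more were found in 46.3%, 28.6%, 84.6% and 1.59% of the 32851 promoters of the same length in the table, of which 96.0% had at least 1 and the median had 3. The 4 promoters had 70.7, 60.7, 52.0 and 60.3% G and C, against a median of 52.7%. A match is a run of letters and not a known site. In the GENCODE vM21 annotation of the same assembly, whose build the labels name as mm10, the genes span chr5:147561604-147726011 (Flt1), chr5:75932827-75978458 (Kdr), chr4:94739289-94874976 (Tek), chr4:118471191-118490061 (Tie1), chr5:75152292-75198215 (Pdgfra), chr5:138976014-138997370 (Pdgfa), chr15:79995874-80014977 (Pdgfb) and chr17:46016993-46032369 (Vegfa).

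Among 5493 genes with at least 500 UMIs, the genes whose mean CPM over the 10 named classes was most like that of each member were named. Pearson's r rounded to 1.00 for Ushbp1, Pecam1 and Adgrl4 with Flt1 and for Cyyr1, Ptprb and Erg with Tek, was 0.999 for Foxq1, Cxcl12 and Ccm2l with Kdr, and 0.998, 0.998 and 0.997 for Nostrin, Sgms1 and Egfl7 with Tie1. For Pdgfra the nearest were the OPC markers Cacng4, Lhfpl3 and Vcan (r of 0.999 to 1.00), for Pdgfrb the smooth muscle markers Myl9, Mylk and Myh11 (0.992 to 0.994), and for Vegfa Gpc5, Luzp2 and Slitrk2 (0.992 to 0.994). Grap, which encodes a signalling adaptor, came nearest to Pdgfb with r = 0.986, followed by Arap3 and H2-Q4. Pdgfa had no close match, with r = 0.838 for Hsp90ab1 at best. These correlations span 10 classes that share libraries and are given with no test.

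The other genes of the 3 pathways, from lists of 37 genes of which 36 were found, showed which classes hold the remaining ligands. Angpt1, the agonist of Tek, was highest in fibroblast-like (92.8 ± 86.3 CPM) and mural-like cells (72.7 ± 40.5 CPM) and stood at 12.6 ± 10.7 CPM in astrocyte-like cells. Angpt2 had only 66 UMIs in all and is named although it had fewer than the 100 UMIs otherwise asked for; it lay at 19.7 ± 19.1 CPM in mural-like and 15.3 ± 15.0 CPM in endothelial-like cells. Ptprb, the phosphatase that restrains Tek, was an endothelial gene at 2314 ± 458 CPM. Vegfb was highest in astrocyte-like cells at 97.4 ± 40.2 CPM, Vegfc in mural-like cells at 38.8 ± 28.9 CPM and Pgf, a further Flt1 ligand, in fibroblast-like cells at 119 ± 93.5 CPM. The co-receptor Nrp1 was read in macrophage-like (340 ± 228 CPM), fibroblast-like (337 ± 144 CPM) and endothelial-like cells (248 ± 55.1 CPM), and Flt4, the receptor of Vegfc, in endothelial-like cells at 36.7 ± 20.5 CPM. Apln, an endothelial VEGF response gene by the list, was highest in astrocyte-like cells at 108 ± 58.7 CPM, and Unc5b of the same list in oligodendrocyte-like cells at 143 ± 56.7 CPM.

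The genotype question was whether any of the 9 genes differed between THY-Tau22 and WT mice, within each sex and between the sexes. The sums per library were compared in all cells together and in 8 classes, and 30 of the 81 combinations of gene and level passed the filter on low counts. None passed the threshold with all 14 libraries in 1 fit (edgeR quasi-likelihood test with Benjamini-Hochberg adjustment, adjusted p under 0.05 and a log2 fold change of at least 0.5) in males, in females, averaged over the sexes, or in the male against female difference. Of all gene tests at these levels 0.113% were called in males, 0.00298% in females, 0.0149% averaged and 0.0417% in the sex difference, so a count of 0 among 30 is near the background. At an unadjusted p under 0.05 there were 4, 2, 4 and 2 of 30 for the same contrasts, against 15.1%, 2.50%, 5.10% and 13.2% of all tests, and DESeq2 called 0 in each as well. Between the sexes, averaged over genotypes, 0 of 30 passed either (0.0923% of all tests called, 0 members at an unadjusted p under 0.05 and 0 called by DESeq2). In simulated data of the male comparison 2-fold changes were recovered for 47% of changed genes in all cells, 32% in endothelial-like and 37% in OPC-like cells, and 4-fold changes for 100%, 96% and 96%.

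In the class or classes with the highest level of each gene no difference passed the threshold. On the log2 scale, THY-Tau22 minus WT, Pdgfra in OPC-like cells differed by 0.06 ± 0.28 (SE) in males and 0.20 ± 0.25 in females, and Vegfa in astrocyte-like cells by -0.29 ± 0.27 and 0.16 ± 0.24. Pdgfa in oligodendrocyte-like cells differed by -0.49 ± 0.32 and -0.06 ± 0.29. Pdgfb differed by -0.02 ± 0.30 and -0.18 ± 0.27 in endothelial-like cells and by 0.20 ± 0.30 and 0.02 ± 0.26 in microglia-like cells. Pdgfrb in mural-like cells differed by 0.60 ± 0.44 and -0.22 ± 0.40, where the male value was 0.28 without THY-Tau22 male replicate 3. In endothelial-like cells Flt1 differed by -0.50 ± 0.26 and -0.02 ± 0.23, Kdr by 0.17 ± 0.26 and 0.02 ± 0.23, Tek by -0.20 ± 0.26 and 0.09 ± 0.23 and Tie1 by -0.21 ± 0.34 and -0.48 ± 0.29. The direction depended on the scaling for some of these: with plain library totals in place of TMM the male values turned to 0.04 for astrocyte-like Vegfa, and to 0.18, 0.01 and 0.01 for endothelial-like Pdgfb, Tek and Tie1, and the female values to -0.03 for endothelial-like Kdr and -0.02 for microglial Pdgfb. With standard errors of this size a change of 2-fold or less would often be missed, as it was in the simulated data.

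**Figure D5:**
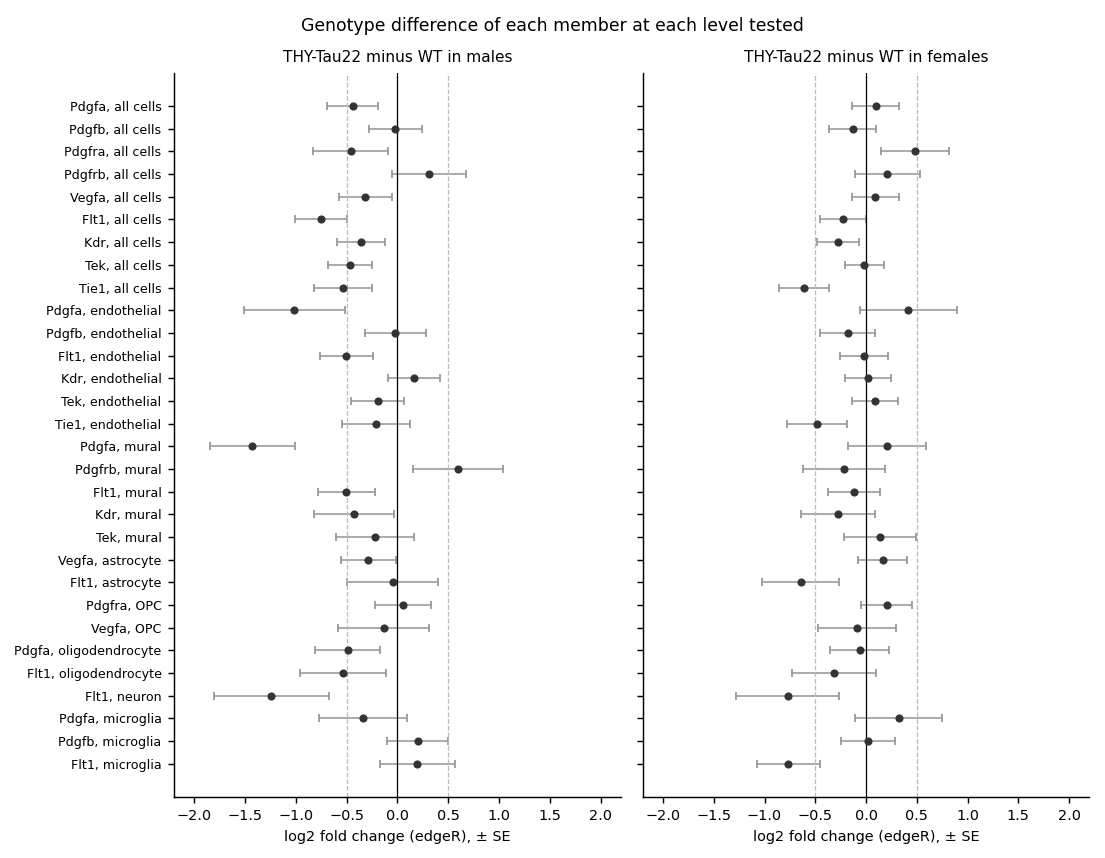
Log2 fold change of THY-Tau22 against WT (x axis, points, with lines for the SE of the edgeR fit) for the 30 tested combinations of gene and level (y axis), in males on the left and females on the right; dashed lines mark the size of 0.5 asked of a call. The lowest male points are Pdgfa in mural-like cells (-1.43) and Flt1 in neuron-like cells (-1.24), and no point drawn passed the adjusted threshold.

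In all cells together, 8 of the 9 genes had a negative log2 fold change in males (median -0.44, against 0.01 over the 11643 genes tested, of which 48.8% were negative) and 5 of 9 in females (median -0.02, against -0.01, with 52.1% negative). With plain library totals 7 of 9 were negative in males (median -0.25, against 0.20 over all genes), since Pdgfb turned to 0.16, and 5 of 9 in females (median -0.03, against -0.03). In such sums fewer cells of a type and less RNA per cell cannot be told apart. Flt1 in all cells was 1504, 1340 and 1673 CPM in male WT libraries and 1058, 1109 and 863 CPM in male THY-Tau22 libraries. The difference was -0.75 ± 0.25 (edgeR, adjusted p = 0.240). Of all genes tested in all cells 15.4% had an unadjusted p under 0.05 in males (edgeR). Fitted with the male libraries alone it passed the threshold, at -0.75 (edgeR, adjusted p = 0.0451), while the adjusted p lay between 0.0451 and 0.649 over all alternatives. That fit also called far more tests over all genes than the fit of all 14 libraries, with the counts given in the last section. In females Flt1 in all cells was 1236 ± 206 CPM (n = 3) against 1058 ± 184 CPM (n = 5), which overlapped. Within endothelial-like cells Flt1 was 6479, 7124 and 7500 CPM in male WT and 5727, 5618 and 5247 CPM in male THY-Tau22 libraries. The difference was -0.50 ± 0.26 (edgeR, adjusted p = 0.346), and the female difference was -0.02 ± 0.23. The difference between the sexes was -0.52 ± 0.34 in all cells (adjusted p = 0.498).

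Other endothelial measures in males did not all move with Flt1. Endothelial-like cells made up 14.9 ± 0.724% of male WT and 11.6 ± 2.29% of male THY-Tau22 cells (n = 3 each). The lowest share, 8.97% against 13.1% and 12.8% in the other male THY-Tau22 libraries, and the lowest Flt1 value both came from replicate 3, the library with 30.3% of its cells unnamed, and without it Flt1 in all cells differed by -0.62 (adjusted p = 0.649, edgeR). The 10 endothelial markers summed to 2323 ± 151 and 2621 ± 110 CPM of all cells, with 3 of the 10 lower in THY-Tau22 mice. In females the shares were 15.5 ± 1.76% (n = 3) and 12.7 ± 1.93% (n = 5), the sums 2959 ± 895 and 2373 ± 441 CPM, and 9 of 10 markers were lower. None of the 10 markers was at 0. The part of these in the Flt1 result was not tested. Ptprb differed by -0.88 ± 0.29 in all cells of males (edgeR, adjusted p = 0.234), where only 2 list genes of the angiopoietin pathway were tested. It was the only one of that list with an unadjusted p under 0.05 in males, against 15.4% of all genes in all cells. Under the doubled library's 2 labels Flt1 in all cells read 1148 CPM as male WT and 1111 CPM as male THY-Tau22, below the other male WT values.

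Pdgfa in mural-like cells gave the lowest unadjusted p of the 9 genes. It was 190, 216 and 196 CPM in male WT libraries (11 to 33 UMIs each) and 74.3, 62.9 and 91.8 CPM in male THY-Tau22 libraries (4 to 8 UMIs each). The difference was -1.43 ± 0.42 (edgeR, unadjusted p = 0.00162, adjusted p = 0.225). Of all genes tested in mural-like cells 10.7% had an unadjusted p under 0.05 in males (edgeR). In females the level was 124 ± 46.2 CPM (n = 3) in WT and 155 ± 15.2 CPM (n = 5) in THY-Tau22 libraries, a difference of 0.21 ± 0.38, and the male against female difference was -1.64 ± 0.57 (adjusted p = 0.398). Smooth muscle-like cells, the sub-cluster richest in Pdgfa, made up 19.2 ± 5.72% of the mural-like cells in male WT and 10.6 ± 4.85% in male THY-Tau22 libraries. Smooth muscle markers summed to 2815 ± 638 and 2515 ± 223 CPM of mural-like cells, ranges of mean ± SD that overlapped, with 6 of 9 lower. Pericyte markers summed to 5693 ± 441 and 8630 ± 2257 CPM of mural-like cells, with 0 of 9 lower. Their part in the result was not tested. The doubled library read 235 CPM as male WT and 289 CPM as male THY-Tau22, and counting it once as THY-Tau22 moved the difference to -0.67.

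Endothelial Pdgfa differed by -1.02 ± 0.50 in males (adjusted p = 0.324) on 174, 58.6 and 28.7 CPM in WT and 84.9, 47.6 and 29.9 CPM in THY-Tau22 libraries, which overlapped. The value rested on WT male replicate 1 and was 0.15 without that library. Its male against female difference of -1.43 ± 0.69 (adjusted p = 0.363) was -0.27 without it. Tie1 in all cells was 36.8 ± 8.71 CPM (n = 3) in female WT and 23.3 ± 5.77 CPM (n = 5) in female THY-Tau22 libraries, which overlapped, a difference of -0.61 ± 0.25 (adjusted p = 1.000). Flt1 in neuron-like cells differed by -1.24 ± 0.57 in males (adjusted p = 0.706). The endothelial markers summed to 208 ± 28.3 CPM of neuron-like cells in male WT and 120 ± 104 CPM in male THY-Tau22 libraries, with 6 of 10 lower, and their part was not tested. In microglia-like cells Flt1 differed by -0.77 ± 0.31 in females (adjusted p = 1.000), with the same markers at 193 ± 72.6 CPM in WT and 141 ± 31.5 CPM in THY-Tau22 libraries and 7 of 10 lower.

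Of the 36 other pathway genes found, 27 were tested at 1 level or more, in 69 tests per contrast, and 0 were called in any contrast by edgeR. At an unadjusted p under 0.05 there were 4 of 69 in males, 4 in females, 4 averaged over the sexes and 6 in the sex difference. Over all gene tests the shares were 15.1%, 2.5%, 5.1% and 13.2% in the same order. In all cells the 7 tested endothelial VEGF response genes had a median of -0.20 in males and -0.20 in females, and the 11 tested hypoxia genes 0.11 and -0.11, beside medians over all genes of 0.01 and -0.01. Angpt1 differed by 1.44 ± 0.46 in all cells of females (adjusted p = 1.000) and by 0.09 ± 0.43 in males.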

How the data were processed

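Cortical single-cell suspensions of 17-month-old mice were profiled by Drop-seq. The deposited tables hold raw UMI counts per gene and barcode, made by the authors on build mm10; the aligner and annotation are not given in the sources used here. The study's filter of 200 to 7000 detected genes was applied, without its mitochondrial limit, which was an alternative. Kept cells were clustered (scanpy 1.11.5, Leiden resolution 1.0, 2500 variable genes, 19 components) without the members and the pathway lists, clusters were named from marker lists, and doublets were kept. Mural-like cells were clustered again after the data were seen. UMIs were summed per library and class, a class needing 10 cells in a library.

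Genotype was tested with edgeR 4.0.16 (quasi-likelihood, TMM, 1 mean per group, 14 libraries), with Benjamini-Hochberg adjustment over all genes at a level. Classes and splits were compared by exact two-sided sign-flip tests over libraries. Per the labels 1 library is 1 mouse, so p-values measure the spread between mice, but 2 titles share an animal number. The authors compared genotypes over cells; here cells are not replicates. The scripts were tested on simulated data. All 9 members and all pathway genes with at least 100 UMIs could be named. Members, lists and markers were chosen with earlier results of these data known. Alternatives were DESeq2 1.42.0, other cell filters, clusters, classes and scalings, and leaving out each library; a batch term and leaving out the 2 libraries that share an animal number were added after the data were seen. Intervals are exact Poisson at 95%, a count of 0 is bounded by 3 counts, and both cover counting error only. RefSeq promoters matched 7 of the 9 members.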

Additional observations from a re-analysis of the deposited data

Results flagged for a closer look

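In groups of 5 libraries, 30 combinations of member and level were examined for 1 library far from the other 4, and 3 were found by Dixon's ratio above 0.71. Chance alone marks about 1 in 20 groups. All 3 are female THY-Tau22 libraries because no other group had enough libraries to be examined. Pdgfb in all cells was lowest in replicate 2, at 36.9 CPM against 68.8 to 81.0 CPM in the others. Flt1 in astrocyte-like cells was highest in the same replicate, at 115 CPM against 35.4 to 57.6 CPM. Pdgfrb in mural-like cells was lowest in replicate 1, at 119 CPM against 256 to 310 CPM.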

How the results depend on the processing

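No member was called in any contrast under the alternatives, with 2 exceptions. With the male libraries in a fit of their own 1 member passed (Flt1 in all cells, adjusted p = 0.0451, edgeR), and over the fits that leave out 1 library the female count lay between 0 and 1 (Flt1 in OPC-like cells, without WT female replicate 1). In the main setting 38, 1, 5 and 14 tests over all genes were called in males, in females, averaged and in the sex difference. With no filter on low counts these were 489, 57, 85 and 275, without TMM 11, 0, 0 and 42, with DESeq2 144, 0, 2 and 62, without the 2 MB22 libraries 519, 13, 3 and 1949, and 0, 1, 1 and 0 with all 16 tables. With the shared library kept once they were 108, 1, 2 and 36 as WT and 1, 1, 2 and 0 as THY-Tau22. A fit of 1 sex gave 1848 in males and 0 in females, removed doublets gave 2 in females and 2 averaged, the mitochondrial limit gave 31 in the sex difference, and no filter moved the calls between the sexes from 31 to 75. Leaving out 1 library gave 0 to 543, 0 to 25, 0 to 17 and 0 to 3006, the highest without WT female replicate 3 in 3 of these and WT female replicate 2 in the averaged contrast. The cause was not tested.

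The difference between the first and the second class of each gene kept its direction and its side of the threshold in the settings run, with these exceptions. Oligodendrocyte-like minus mural-like Pdgfa, not past the threshold, became -7.72 CPM with all 16 tables and ranged from -0.39 (without WT female replicate 2) to 17.8 CPM over the fits that leave out 1 library. Endothelial-like minus microglia-like Pdgfb was 24.1 CPM with all 16 tables (adjusted p = 0.0972, exact test). OPC-like minus fibroblast-like Pdgfra was 1448 CPM with doublets removed (adjusted p = 0.0662, exact test) and 1336 to 1453 CPM when 1 library was left out (adjusted p 0.0375 to 0.0750, exact test, with 7 or 8 libraries). With 30 cells asked per library the pair had too few libraries and gives no value. Flt1 in neuron-like cells of males turned to 0.11 on the log2 scale with classes set from markers in each cell. No paired analysis was possible because the labels give no replicate number that pairs samples across groups. The titles do carry an MB label, and with it as a batch term, an alternative chosen after the data were seen, 255, 2, 6 and 315 tests over all genes and 0 members were called in the 4 contrasts. Without the 2 libraries that share an animal number, also chosen after the data were seen, these were 0, 1, 0 and 1, and 0 members. Depth limits genes with few UMIs per class, such as Pdgfa in mural-like cells.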
